A study of Mus musculus with 4 samples.

Results

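Granulocytes were set against Gr1-low bone marrow cells that lack Gfi1, to show which parts of the neutrophil expression program those cells hold and which they do not. The comparison used 2 of the 4 microarrays of the series, picked by sample title, with 1 array on each side. The granulocytes were CD11b+, Gr1-high cells of mice heterozygous for a GFP:Gfi1 knock-in allele (genotype GFP:Gfi1 KI/WT), in which green fluorescent protein reports the activity of the Gfi1 locus. The cells without Gfi1, called Gfi1-deficient monocytes after their title, were CD11b+, Gr1-low cells of a mouse homozygous for that allele (GFP:Gfi1 KI/KI). Both kinds of mice were untreated, 8 weeks old, of the C57BL/6 strain after at least 10 generations of backcrossing, and kept free of specific pathogens. The knock-in allele was thus present on both arrays, and genotype, Gr1 gate and cell population differed together. The remaining arrays held CD11b+, Gr1-low cells of heterozygous mice, divided into those with high and those with low GFP, and their levels are given for reference. How many mice each array stands for is not given in the labels.

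Neutrophils build their granules in waves. Primary granules, with myeloperoxidase and serine proteases, are filled at the promyelocyte stage. Specific granules, with lactoferrin and cathelicidin, follow in myelocytes, and gelatinase granules come last, before the cell acquires the chemokine receptors used in exit from the marrow and recruitment. Gfi1 is a zinc finger repressor needed for neutrophil formation, and mice without it have few mature neutrophils and an excess of atypical monocytic cells.

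Values are log2 signals, and every difference is granulocytes minus Gfi1-deficient monocytes. Each gene was represented by the probe set that was brightest on average across the 4 arrays, and 410 genes on chromosomes X and Y were left out, which left 11983 genes. A floor was placed at 5.18, the 40th percentile of the deposited values, and lower signals were raised to it. A difference with 1 array below the floor is therefore a lower bound, written "at least". Of the 11983 genes, 8285 were above the floor on 1 or both arrays. With 1 array a side there is no test, no p-value and no spread between animals. Probe sets of the same gene differed in their log2 difference with an SD of 0.43 (3050 genes), which covers disagreement within these arrays only.

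Granulocytes exceeded Gfi1-deficient monocytes by 2-fold or more in 934 of 8285 genes (11.3%) and fell short by as much in 1685 (20.3%), with a median difference of -0.01. A gene was called missing where it was at least 2-fold higher in granulocytes and below the floor in Gfi1-deficient monocytes, which held for 118 genes (1.42%). It was called kept where both arrays were above the floor and within 2-fold, which held for 4901 genes (59.2%). These shares are the background for each count below. Several probe sets above the floor were available for 1064 genes past the 2-fold line, and in 995 they lay on the same side.

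The sort and genotype labels were first set against marker genes. Itgam, which encodes the CD11b chain, read 11.92 in granulocytes and 10.38 in Gfi1-deficient monocytes. Csf1r, which encodes the M-CSF receptor of monocytes, read 10.99 and 12.62, and was 3.09-fold lower in granulocytes, where it still lay far above the floor. The neutrophil markers Camp, Ltf, Mmp9 and Cxcr2 were higher in granulocytes by 6.59, 6.74, 7.65 and 6.36 log2 units. These differences go in the direction of the labels, but are part of the comparison itself and no independent check of them. On the reference arrays the markers did not follow the name monocyte throughout. GFP-high monocytes read 14.18 for Camp, against 13.96 in granulocytes, and 8.86 for Csf1r, lower than granulocytes. Gfi1 read 7.31 in granulocytes and 5.18, within rounding of the floor, in Gfi1-deficient monocytes, a bound of at least 4.39-fold. The same probe set read 3.74 in GFP-low and 10.31 in GFP-high monocytes of heterozygous mice. A low Gfi1 signal thus does not by itself mark the genotype. Whether the Gfi1 probe set lies in the replaced part of the gene is not known here. Xist read 9.56 in granulocytes and 5.80 in Gfi1-deficient monocytes, and the Y-linked Eif2s3y read 3.40 and 8.31, so the sex of the mice differed along with genotype.

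**Figure D1:**
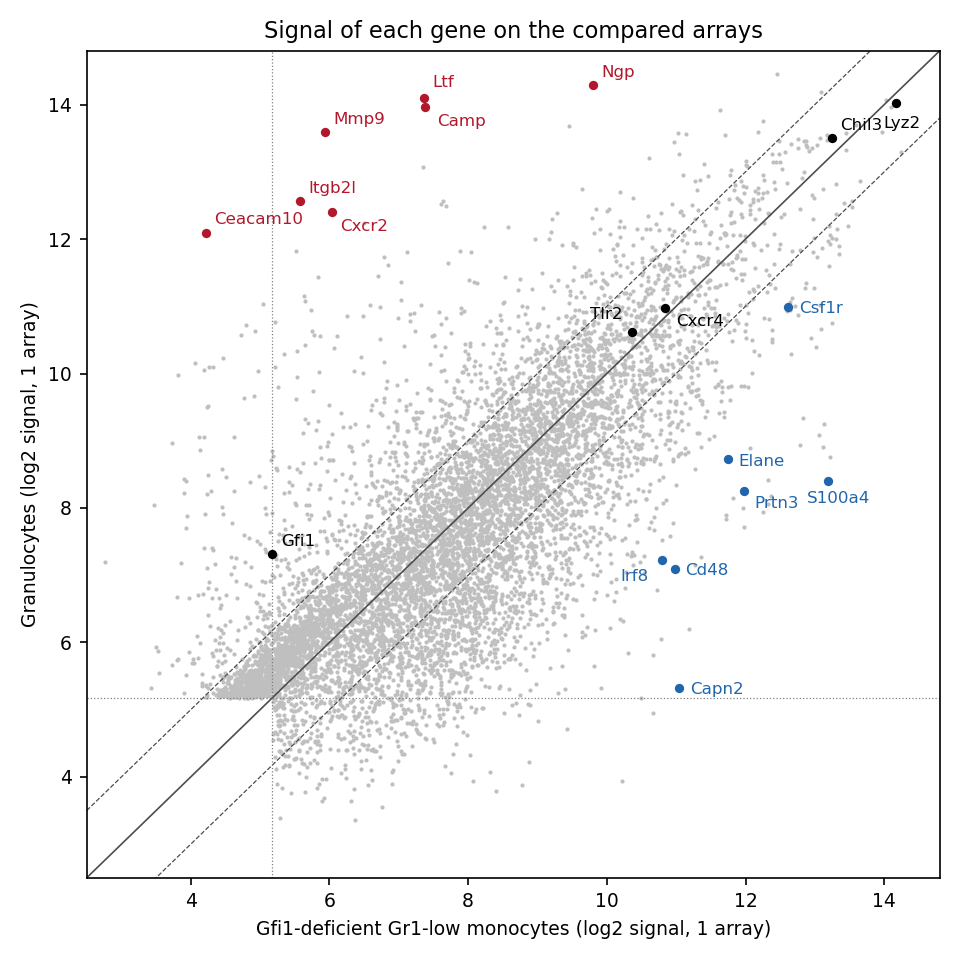
Each grey point is 1 of 8285 genes, with its log2 signal in Gfi1-deficient monocytes (horizontal axis) and granulocytes (vertical axis). The solid line marks equal signal, dashed lines 2-fold and dotted lines the floor of 5.18. Granule genes such as Mmp9 and Ltf (red) stand in the upper left, monocyte and primary granule genes (blue) lie below the line, and Lyz2, Chil3, Cxcr4 and Tlr2 (black) lie near it.

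The primary granule genes were not lost from the cells without Gfi1. Of 10 listed genes, 8 had a probe set naming only them, all 8 were above the floor, and 6 stood 2-fold or more higher in Gfi1-deficient monocytes than in granulocytes, with 1 lower and 1 kept (median difference -2.54). Prtn3, which encodes proteinase 3, read 8.25 in granulocytes and 11.97 in Gfi1-deficient monocytes, beside 9.69 in GFP-low and 13.32 in GFP-high monocytes. Elane, the neutrophil elastase gene, read 8.72 and 11.75, with 9.31 and 13.64 on the other arrays in the same order. Mpo, the myeloperoxidase gene, read 9.36 and 11.42, with 8.08 and 13.66. In these protease and peroxidase genes the array without Gfi1 thus stood between GFP-low and GFP-high cells, and granulocytes stood at or below the level of GFP-low cells except in Mpo. Ctsg, another serine protease gene, was 8.09-fold and the progenitor marker Ms4a3 2.45-fold lower in granulocytes. Ctsc, whose product cleaves the proproteases into active enzymes, was 11.1-fold lower in granulocytes, and read 12.82 in Gfi1-deficient monocytes, 12.46 in GFP-low cells and 9.24 in GFP-high cells. Serpinb1a, which encodes an inhibitor of these proteases, was the exception, with 12.18 in granulocytes and 10.18 in Gfi1-deficient monocytes. Srgn, encoding serglycin, the proteoglycan that packs granule proteases, was kept at 13.27 and 12.38.

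Specific granule genes divided into strongly reduced and kept members. Of 17 listed, 15 had a probe set and 14 were above the floor. Of these, 11 lay 2-fold or more lower in Gfi1-deficient monocytes, 2 of them missing, and 3 were kept, with a median difference of 2.82 (range -0.15 to 6.92). Ltf, the lactoferrin gene, read 14.10 in granulocytes and 7.36 in Gfi1-deficient monocytes, a difference of 107-fold. Camp, which encodes the cathelicidin precursor, read 13.96 and 7.37, a difference of 96.3-fold. Both remained above the floor without Gfi1 and were therefore not missing by the rule used. In a sorted bulk sample, fewer cells with a transcript and less of it per cell cannot be told apart.

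The same genes were far higher in the other Gr1-low populations. Ltf read 12.18 in GFP-low and 14.07 in GFP-high monocytes, and Camp read 12.41 and 14.18. Ngp, a secreted cathelicidin relative of neutrophil granules, read 14.29 in granulocytes, 9.80 in Gfi1-deficient, 13.32 in GFP-low and 14.35 in GFP-high monocytes. The lowest reading of all 3 genes was thus on the array without Gfi1. Pglyrp1, a peptidoglycan recognition protein gene, was 18.7-fold higher in granulocytes and Chil1, a chitinase-like protein gene, 8.43-fold higher. The GPI-anchored receptor gene Cd177 was 5.88-fold and Lcn2, which encodes an iron siderophore-binding protein, 4.91-fold higher. Lcn2 nevertheless read 11.63 in Gfi1-deficient monocytes, so its transcript was abundant there.

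The missing members were Ceacam10, of the carcinoembryonic antigen family, and the acute-phase gene Orm1. Ceacam10 read 12.09 in granulocytes and 4.22, below the floor, in Gfi1-deficient monocytes, a bound of at least 121-fold, and its probe sets gave 6.35 and 6.92. Orm1 read 9.05 and 4.12, a bound of at least 14.7-fold, and read 10.79 in GFP-high cells. The kept members were Lyz2 (14.02 in granulocytes and 14.17 in Gfi1-deficient monocytes), the lysozyme gene, Chil3 (13.50 and 13.25), encoding the chitinase-like protein Ym1, and Hp (13.39 and 12.87), the haptoglobin gene. Olfm4 and Bpi had no probe set of 1 gene and were not analysed here.

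**Figure D2:**
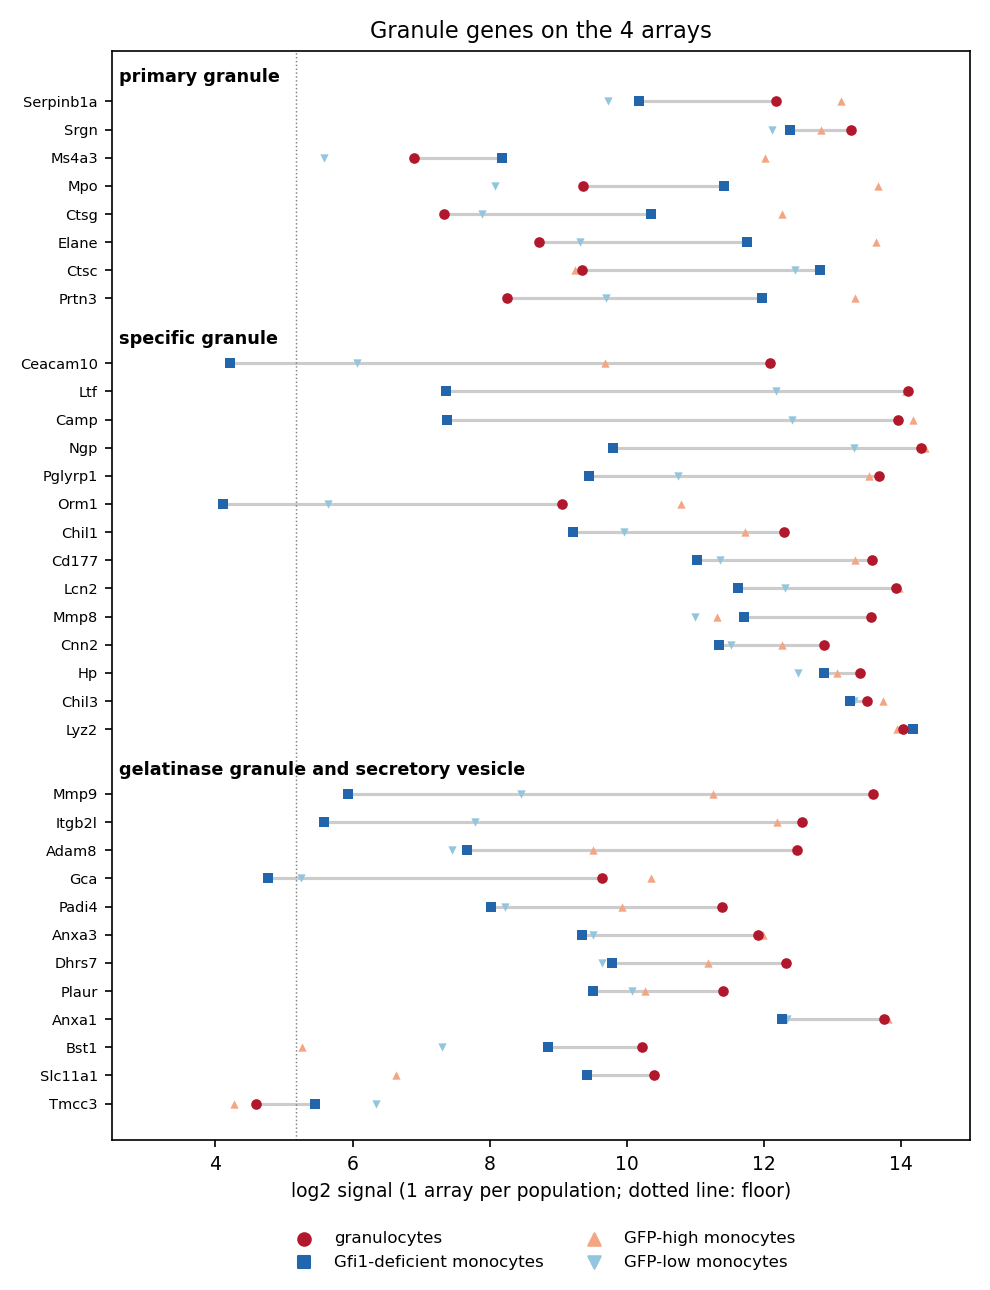
Log2 signal (horizontal axis) of the granule genes above the floor, by list, on the arrays of granulocytes (circles), Gfi1-deficient (squares), GFP-high (upward triangles) and GFP-low monocytes (downward triangles). Grey bars join the compared arrays. Squares lie right of circles for 6 of 8 primary granule genes, and left of them for the 11 specific and 10 gelatinase granule genes that were at least 2-fold apart.

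Camp, Ngp and Ltf lie on mouse chromosome 9 within the same stretch, with Ngp between the others in the GRCm38.p6 assembly. RefSeq places 29 protein-coding genes between Camp and Ltf, of which 13 were above the floor here. Of these, 2 stood 2-fold or more higher in granulocytes, Ngp and Nbeal2, a gene of granule biogenesis (10.28 and 7.61), and 2 at least 2-fold lower, with a median of 0.45. Elane and Prtn3 are neighbours on chromosome 10 with no protein-coding gene between them. The 250 bases before the start site of these genes, from RefSeq with GRCm38.p6 coordinates, are shown because these clustered genes stood at opposite ends of the granule program. Capitals mark matches on either strand to 3 letter patterns: AAATCA, holding the core that Gfi1 binds; TTNNGNAA, a loose C/EBP pattern; and GAGGAA, holding the PU.1 core, which on the opposite strand reads TTCCTC.
Camp, chr9:109849457-109849706, minus strand: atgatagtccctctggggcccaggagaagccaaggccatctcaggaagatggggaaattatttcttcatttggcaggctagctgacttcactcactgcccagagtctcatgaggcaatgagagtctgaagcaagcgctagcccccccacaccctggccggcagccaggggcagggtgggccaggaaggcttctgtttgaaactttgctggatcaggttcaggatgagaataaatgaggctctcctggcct
Ngp, chr9:110419558-110419807, plus strand: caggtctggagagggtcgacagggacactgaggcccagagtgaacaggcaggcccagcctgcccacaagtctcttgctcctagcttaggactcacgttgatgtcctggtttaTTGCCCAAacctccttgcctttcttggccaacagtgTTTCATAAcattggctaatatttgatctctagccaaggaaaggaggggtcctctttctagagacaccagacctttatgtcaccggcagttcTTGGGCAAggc
Ltf, chr9:111019042-111019291, plus strand: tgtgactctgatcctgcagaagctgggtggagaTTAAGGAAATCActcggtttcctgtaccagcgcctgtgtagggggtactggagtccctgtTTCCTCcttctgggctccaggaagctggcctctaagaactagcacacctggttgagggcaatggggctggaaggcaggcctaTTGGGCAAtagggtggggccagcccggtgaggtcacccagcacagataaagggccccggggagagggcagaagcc
Prtn3, chr10:79879417-79879666, plus strand: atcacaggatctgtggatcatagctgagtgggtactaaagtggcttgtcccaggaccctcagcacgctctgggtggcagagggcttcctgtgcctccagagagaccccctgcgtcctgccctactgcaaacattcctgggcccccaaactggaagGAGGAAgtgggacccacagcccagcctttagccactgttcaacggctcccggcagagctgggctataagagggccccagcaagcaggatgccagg
Elane, chr10:79886062-79886311, plus strand: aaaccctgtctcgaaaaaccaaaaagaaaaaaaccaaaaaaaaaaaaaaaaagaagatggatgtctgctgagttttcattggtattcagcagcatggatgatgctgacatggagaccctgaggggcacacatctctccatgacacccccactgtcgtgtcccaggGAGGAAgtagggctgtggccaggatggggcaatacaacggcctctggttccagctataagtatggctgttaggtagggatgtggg

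The run TTGGGCAA occurred before both Ltf, 75 to 68 bases ahead of the start site, and Ngp, 11 to 4 bases ahead. In Ltf the Gfi1-type match, from 211 to 206 bases ahead, overlapped a C/EBP-type match. The Prtn3 and Elane windows each held GAGGAA, 95 and 85 bases ahead at its first base. The Camp window held none of the patterns, which says only that these letters are not in these 250 bases. Over genes with a promoter in the table, the C/EBP pattern was present for 8 of 12 specific granule, 7 of 9 gelatinase granule, 2 of 7 primary granule and 2 of 13 late maturation genes, and for 40.3% of all 27025 genes. GAGGAA was present for 6, 4, 5 and 4 of these genes in the same order, against 25.9% of all genes. AAATCA was present for 3, 2, 0 and 0, against 14.2%. A letter match is a description and not evidence of binding.

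Genes of gelatinase granules and of secretory vesicles were mostly lower in cells without Gfi1 than in granulocytes, to very different levels. Of 17 listed, 14 had a probe set and 12 were above the floor. At least 2-fold lower in Gfi1-deficient monocytes were 10 of the 12, 1 of them missing, and the median difference was 2.55. Mmp9, which encodes the gelatinase that names these granules, had the largest difference of all 8285 genes. It read 13.59 in granulocytes, 5.94 in Gfi1-deficient, 8.45 in GFP-low and 11.25 in GFP-high monocytes, and its 2 probe sets gave differences of 7.65 and 7.67. The 201-fold difference left a reading close to the floor. Itgb2l, an integrin beta chain gene, was 126-fold higher in granulocytes, with 12.56 against 5.58. Padi4, whose enzyme citrullinates histones, was 10.3-fold higher, with 8.02 left in Gfi1-deficient monocytes. Gca, encoding the calcium-binding protein grancalcin, was the missing member (9.64 and 4.77, at least 22.0-fold). The annexin genes Anxa3 and Anxa1 were 5.91-fold and 2.82-fold higher in granulocytes, and Slc11a1, a metal transporter of phagosomes, was kept at 10.39 and 9.42. The median level of the list was 11.66 in granulocytes, 8.44 in Gfi1-deficient, 8.34 in GFP-low and 10.32 in GFP-high monocytes. It was thus alike in Gfi1-deficient and GFP-low monocytes, though Mmp9 and Itgb2l (7.78 in GFP-low monocytes) were not.

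Late maturation genes formed the list with the largest median, 3.99. Of 23 listed genes, 18 had a probe set, all 18 were above the floor, 16 lay 2-fold or more lower in Gfi1-deficient monocytes and 4 of these were missing. The missing members were Scrg1 (at least 57.7-fold), Ankrd33b (at least 46.6-fold), the skin aspartic protease gene Asprv1 (at least 43.9-fold) and Acod1, which encodes the enzyme that makes itaconate (at least 14.7-fold). In GFP-low monocytes they read 5.55, 4.88, 5.21 and 4.52, close to the floor or below it. Arg2, the mitochondrial arginase gene, read 11.16 in granulocytes, 5.63 in Gfi1-deficient, 4.22 in GFP-low and 4.74 in GFP-high monocytes, so its signal was near or below the floor in every Gr1-low population. The lipolysis inhibitor gene G0s2 was 43.2-fold higher in granulocytes and the glucose transporter gene Slc2a3 53.0-fold higher, with 7.35 left in Gfi1-deficient monocytes. A second set of late genes was reduced but abundant. Slpi, a secreted protease inhibitor gene, read 13.56 and 11.14, Wfdc21 read 13.45 and 10.96, and Lrg1, a secreted glycoprotein gene, read 12.96 and 11.09. Lrg1 read 8.01 in GFP-low monocytes, lower than on the array without Gfi1. Ifitm2 and Msrb1 were kept.

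Receptors for chemoattractants ranged from strongly lower to kept in cells without Gfi1, relative to granulocytes. Of 12 listed, 10 had a probe set and 8 were above the floor, 5 at least 2-fold lower in Gfi1-deficient monocytes and 3 kept (median 1.46). Cxcr2, the receptor for neutrophil-recruiting chemokines, read 12.40 in granulocytes, 6.04 in Gfi1-deficient, 6.68 in GFP-low and 8.79 in GFP-high monocytes, a difference of 82.1-fold. C5ar1, the receptor for complement C5a, was 12.8-fold higher in granulocytes, with 10.04 against 6.36. The formyl peptide receptor gene Fpr2 was 4.68-fold higher but read 11.04 without Gfi1, and the leukotriene B4 receptor gene Ltb4r1 was 2.91-fold higher with 10.13. The chemokine receptor gene Ccr1 was 1.38 log2 units higher, with 12.13 and 10.75. GFP-low monocytes read 6.29 for C5ar1, 10.66 for Fpr2, 10.13 for Ltb4r1 and 9.57 for Ccr1, no higher than Gfi1-deficient monocytes. The list's median level was 8.86 in Gfi1-deficient, 8.94 in GFP-low and 9.15 in GFP-high monocytes. Cxcr4, which holds cells in the marrow, was kept at 10.98 and 10.85, and spanned only 10.72 to 10.98 over the 4 arrays.

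Most cytokine and receptor genes of the interleukin-1 family above the floor were lower in cells without Gfi1 than in granulocytes, but still read. Of 12 listed, all had a probe set, 11 were above the floor, 6 lay 2-fold or more lower in Gfi1-deficient monocytes, 4 were kept and 1 was higher, with a median of 2.01. The cytokine gene Il1b read 12.56 and 7.63, the decoy receptor gene Il1r2 11.45 and 6.69, and the receptor antagonist gene Il1rn 11.02 and 6.58. Il1f9, an interleukin-36 gene, read 11.36 and 7.04. The receptor gene Il1r1 (6.69 and 5.95) and the cytokine gene Il18 (7.59 and 8.04) were kept. Of the inflammasome genes, Nlrp3 (10.19 and 9.34) and Casp1 (9.08 and 9.30) were kept, and the adaptor gene Pycard read 9.60 in granulocytes and 11.78 in Gfi1-deficient monocytes. The median level of the list was 9.75 in granulocytes, 7.04 in Gfi1-deficient, 6.84 in GFP-low and 7.22 in GFP-high monocytes. Low levels were thus not particular to the array without Gfi1. With the median over all probe sets of a gene in place of the brightest, the median difference was 1.44. It was 0.85 with the least different probe set.

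**Figure D3:**
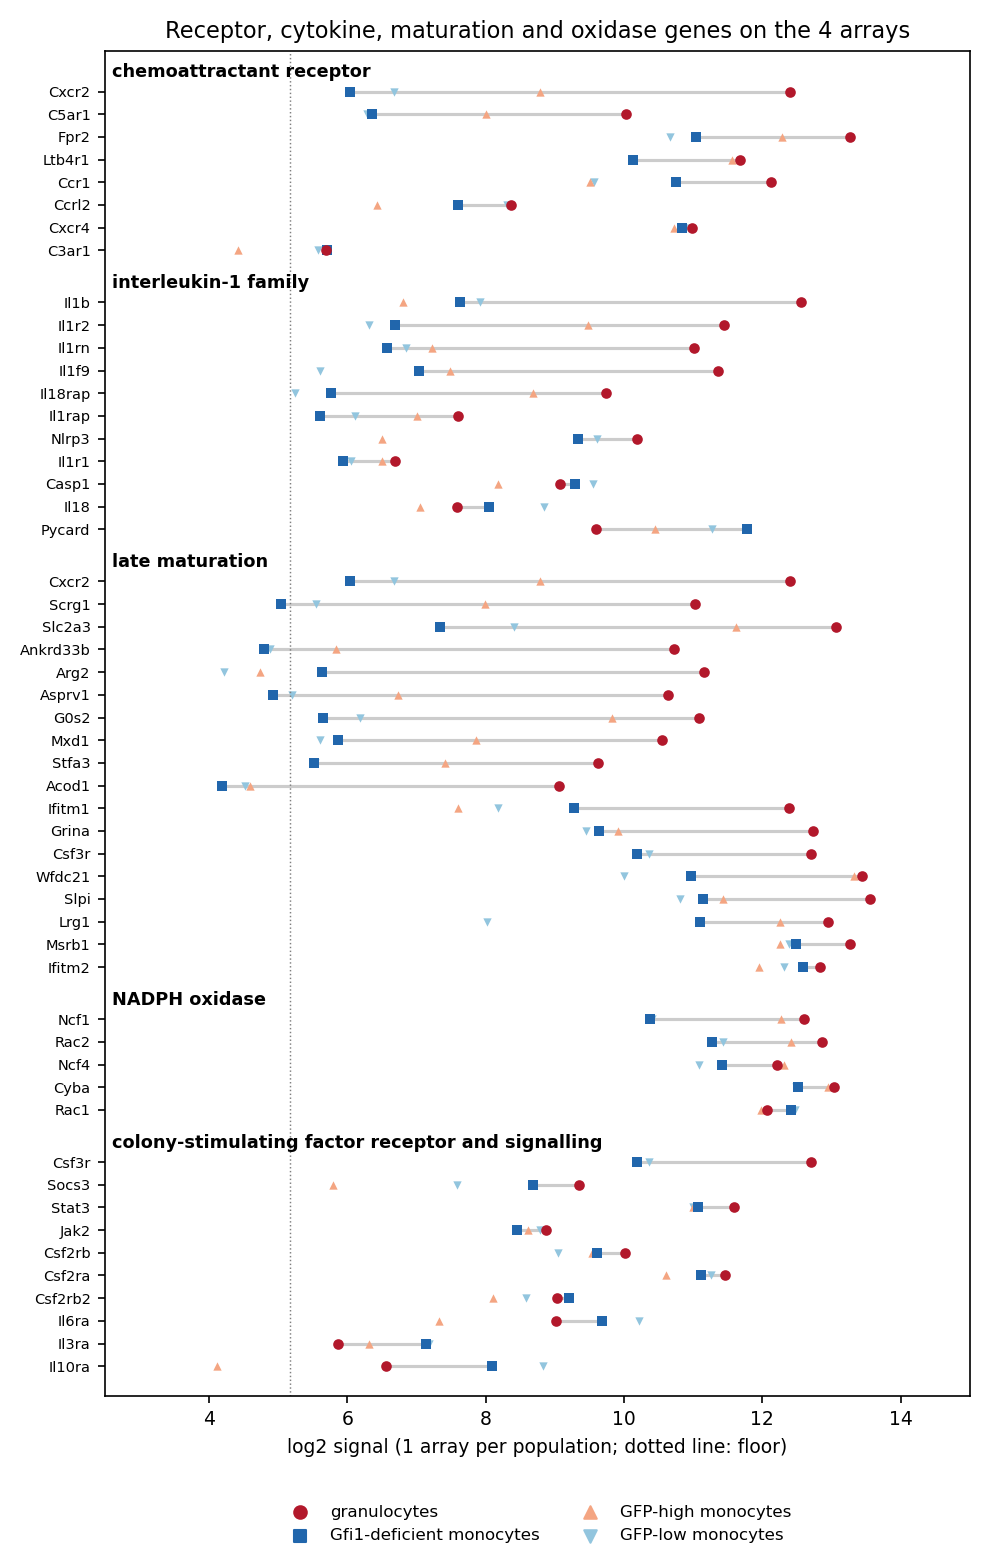
Log2 signal (horizontal axis) of receptor, interleukin-1 family, late maturation, NADPH oxidase and colony-stimulating factor receptor genes above the floor, with symbols and grey bars as for the granule genes. Long bars mark Cxcr2, Il1b, Scrg1 and Arg2; bars are short for Cxcr4, Casp1, Cyba and Csf2ra.

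For the NADPH oxidase, which makes superoxide in phagocytes, 5 of 7 listed genes had a usable probe set and were above the floor, 3 were kept, a share near the 59.2% of all genes, and 2 passed the 2-fold line on the granulocyte side, with a median of 0.80. Cyba, a membrane subunit gene, read 13.04 and 12.52 and Ncf4, a cytosolic subunit gene, 12.22 and 11.42. Ncf1, another cytosolic subunit gene, was 4.68-fold and Rac2, the GTPase of the complex, 3.02-fold higher in granulocytes. Cybb lies on the X chromosome and was left out. The calprotectin genes both passed the 2-fold line on the granulocyte side, S100a8 by 2.15-fold (14.19 and 13.09) and S100a9 by 3.99-fold (14.45 and 12.46), and were abundant on both arrays.

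Among innate recognition genes, 13 of 15 listed had a probe set and were above the floor. Of these, 6 lay 2-fold or more lower in Gfi1-deficient monocytes, against 11.3% of all genes. The other 7 were kept, a share near the 59.2% of all genes. The kept members were Tlr2 (10.62 and 10.36), Tlr6, the adaptor gene Myd88 (10.24 and 10.30), Ly96, the LPS co-receptor gene Cd14, Clec4a2 and Clec7a, which encodes the beta-glucan receptor Dectin-1 (12.04 and 11.99). Lower in cells without Gfi1 than in granulocytes were receptors of the TREM and C-type lectin families and Tlr4. Trem1 was 12.3-fold, Clec4d 12.2-fold, Trem3 8.26-fold and Clec5a 4.71-fold higher in granulocytes. In the same order they read 7.16, 8.57, 8.96 and 8.21 in Gfi1-deficient monocytes. GFP-low monocytes read 6.21, 7.88, 8.72 and 8.00, and GFP-high monocytes 8.16, 6.41, 11.92 and 10.44. None of these was thus higher in GFP-low monocytes than in the cells without Gfi1. Tlr4 (1.03) and Clec4e (1.04) passed the 2-fold line by little. The list median of 0.97 was 0.37 with the least different probe set of each gene.

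Fc receptor genes went in both directions, with 1 of 5 members above the floor lower, 2 kept and 2 higher in Gfi1-deficient monocytes. Fcgr4, an activating receptor gene, was 4.83-fold higher in granulocytes, whereas Fcgr1, the high-affinity IgG receptor gene, read 6.15 in granulocytes and 9.64 in Gfi1-deficient monocytes. The signalling chain gene Fcer1g was kept at 12.69 and 12.19. Of 6 leukotriene and prostaglandin genes above the floor, 2 were lower, 3 within 2-fold and 1 higher in Gfi1-deficient monocytes (median 0.44). Ptgs2, the inducible cyclooxygenase gene, was 12.8-fold higher in granulocytes, and Alox5ap, encoding the protein that presents arachidonate to 5-lipoxygenase, was kept at 13.31 and 12.92.

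Colony-stimulating factor receptors and their signalling genes differed little apart from the G-CSF receptor gene and a pair of interleukin receptor genes. All 10 listed genes were above the floor and 7 were kept, a share near that of all genes, with 1 lower and 2 higher in Gfi1-deficient monocytes (median 0.38). The GM-CSF receptor genes Csf2ra (11.46 and 11.11), Csf2rb (10.02 and 9.61) and Csf2rb2 (9.03 and 9.21) were all kept. The exception on the granulocyte side was Csf3r, encoding the G-CSF receptor, which was 5.72-fold higher in granulocytes yet read 10.19 in Gfi1-deficient, 10.36 in GFP-low and 10.19 in GFP-high monocytes. Its level was thus alike in the 3 Gr1-low populations. Il10ra was 2.89-fold lower in granulocytes by its brightest probe set, but its other probe set gave 0.24.

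Adhesion genes divided between the arrays. Of 12 members above the floor, 7 lay 2-fold or more lower in Gfi1-deficient monocytes, 1 of them missing (Itgax), 3 were higher and 2 kept, with a median of 1.10. The actin cross-linker gene Actn1 read 11.83 and 5.51, a 79.6-fold difference, and its 3 probe sets ranged from 4.79 to 6.31. The beta2 integrin gene Itgb2 was 2.10-fold and Itgam 2.89-fold higher in granulocytes. On the monocyte side were Icam1 (5.50 and 7.50), the beta1 integrin gene Itgb1 (7.43 and 8.98) and its partner Itga4 (6.00 and 7.02). Selplg, the selectin ligand gene, and Cd44 were kept.

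Genes of glucose and glycogen use were kept or lower in cells without Gfi1. Of 12 members above the floor, 4 lay 2-fold or more lower in Gfi1-deficient monocytes, against 11.3% of all genes. The other 8 were kept, a share near the 59.2% of all genes (median 0.76). Besides Slc2a3, the reduced members were all of glycogen metabolism: the branching enzyme gene Gbe1 (8.54 and 5.58), the synthase gene Gys1 (9.23 and 6.97) and the phosphorylase gene Pygl (12.94 and 11.46). GFP-low monocytes read 5.58, 6.96 and 11.35 for these genes, much as Gfi1-deficient monocytes did, and GFP-high monocytes read 8.51, 9.95 and 12.36. The glycolytic enzyme genes Aldoa, Pgam1, Pkm, Ldha, Hk1, Hk2 and Pfkl were kept, with differences from -0.85 to 0.83, as was Ugp2, which makes the glucose donor for glycogen synthesis (10.85 and 10.19). The other probe set of Pfkl gave -1.73.

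Transcription factor genes of the neutrophil lineage were mostly above the floor without Gfi1. Of 14 listed, 13 had a probe set and 12 were above the floor, of which 5 were lower in Gfi1-deficient monocytes, 6 kept and 1 higher (median 0.84). Spi1, which encodes PU.1, read 11.62 and 10.85, Cebpb 12.55 and 12.10, and Cebpd, 2.21-fold higher in granulocytes, 11.84 and 10.70. Cebpa, needed for entry into the granulocyte lineage, read 8.47 in granulocytes and 10.27 in Gfi1-deficient monocytes, beside 10.51 in GFP-low and 8.77 in GFP-high monocytes. The missing members were Gfi1 itself and Klf5, a Krüppel-like factor gene, which read 10.57 in granulocytes, 4.73 in Gfi1-deficient, 5.72 in GFP-low and 10.73 in GFP-high monocytes. The 2 Klf5 probe sets gave 1.48 and 5.39, so its size rests on the brighter of them. Mxd1, a Myc antagonist gene, was 25.9-fold and Bcl6 3.11-fold higher in granulocytes. Cebpe, the factor of specific granule genes, had no probe set of 1 gene and was not analysed here.

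**Figure D4:**
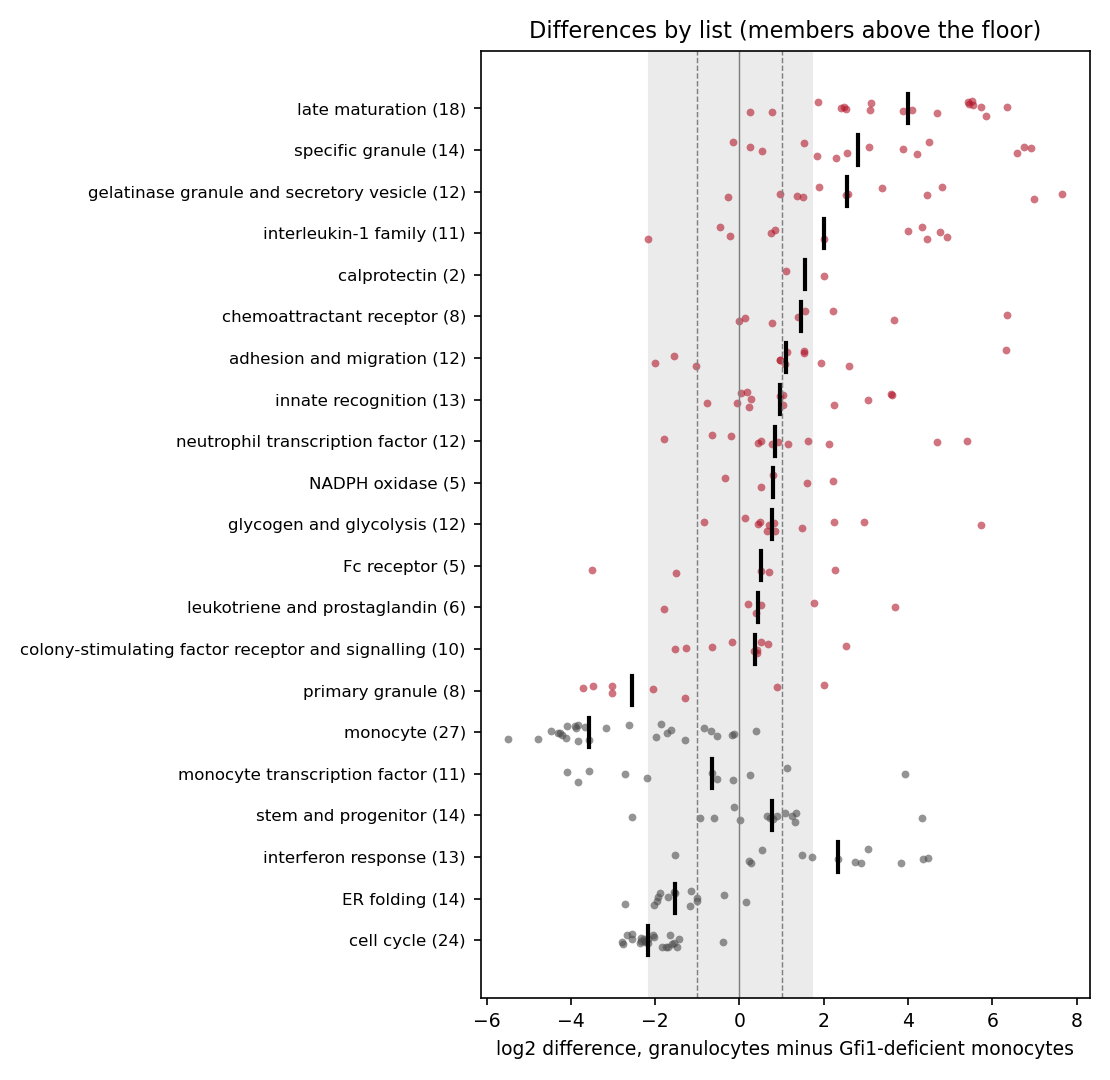
Log2 difference, granulocytes minus Gfi1-deficient monocytes (horizontal axis), of each list member above the floor, with black bars for list medians and the number of members in brackets. Red marks the neutrophil lists and grey a selection of the other lists; the grey band holds the 5th to 95th percentile of all genes (-2.15 to 1.73) and dashed lines mark 2-fold. The medians of late maturation, specific granule, gelatinase granule, interleukin-1 family and interferon genes lie to the right of the band, and those of primary granule, monocyte and cell cycle genes to its left.

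Over the 15 neutrophil lists together, 153 of 181 genes had a probe set and 143 were above the floor. Of these, 75 lay 2-fold or more lower in Gfi1-deficient monocytes, 10 of them missing, and 16 were higher. A further 50 were kept, and 2 lay within 2-fold with 1 array below the floor. Over all 8285 genes the shares were 11.3% lower, 1.42% missing, 20.3% higher and 59.2% kept. The neutrophil lists thus held a smaller share of kept genes than all genes did. No list was missing as a whole. The count of missing genes depended on the floor: over all genes it was 118, against 27 with the floor at the 20th and 185 with it at the 60th percentile. Of the 118, 88 were above the floor in GFP-high and 39 in GFP-low monocytes, and 42 were within 2-fold of granulocytes in GFP-high cells. Only 5 of the 118 were at least 2-fold higher in GFP-low than in Gfi1-deficient cells, with median levels of 4.91 and 4.65 for all 118. The 816 genes reduced but still read were above the floor in GFP-low monocytes for 810, and 43 of them were at least 2-fold higher in GFP-low than in Gfi1-deficient cells. These counts share the 2 arrays that chose the genes and are descriptions.

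Monocyte genes were the counterpart, and were not particular to the cells without Gfi1. Their median level was 8.41 in granulocytes, 11.95 in Gfi1-deficient, 12.08 in GFP-low and 7.64 in GFP-high monocytes. Of 29 listed monocyte genes, 27 were above the floor, 21 stood 2-fold or more higher in Gfi1-deficient monocytes than in granulocytes and 6 were kept (median -3.57). The calcium-binding protein gene S100a4 read 8.41 in granulocytes and 13.18 in Gfi1-deficient monocytes, the fibronectin gene Fn1 8.75 and 13.22, and the chemokine receptor gene Ccr2 8.06 and 12.33. Cd48, encoding a surface protein of the SLAM family, read 7.10 and 10.98, a 14.7-fold difference. Of the monocyte factors, Irf8 was 11.9-fold and Klf4 17.0-fold lower in granulocytes, and Tfec was below the floor there (at least 14.2-fold). Egr1 went the other way, with 11.65 in granulocytes and 7.71 in Gfi1-deficient monocytes. Kept members included the galectin gene Lgals3 (13.33 and 13.45) and the chemokine gene Ccl6 (12.33 and 11.95), so some genes listed for monocytes were as abundant in granulocytes.

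Other genes among the 12 largest on each side were the histidine decarboxylase gene Hdc (12.23 in granulocytes and 6.50 in Gfi1-deficient monocytes), the iron exporter gene Slc40a1 (11.43 and 5.83) and Tmem40 (10.77 and 5.22). On the opposite side were the calpain subunit gene Capn2 (5.32 and 11.05), Ms4a6d (4.95 and 10.66), the lectin gene Cd302 (5.17 and 10.49) and the proteoglycan gene Vcan (3.94 and 10.22). They were followed by the coagulation factor gene F10 (6.20 and 11.18), the phosphatase gene Dusp3 (5.81 and 10.67), Olfm1 (6.05 and 10.78), Ms4a8a (5.32 and 9.92), the endocytic receptor gene Lrp1 (5.84 and 10.31) and Ms4a6c (7.94 and 12.25). Probe sets of Dusp3 gave -4.86 and -0.80, so the size of that difference depends on the probe set.

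Cell cycle genes were also higher in the cells without Gfi1 than in granulocytes, at least 2-fold for 23 of 24 members above the floor (median -2.17). The median level of the list was 9.57 in Gfi1-deficient, 9.10 in GFP-low and 10.28 in GFP-high monocytes, and lower in granulocytes. High levels were thus not particular to the array without Gfi1. The helicase subunit gene Mcm5 read 6.45 in granulocytes and 9.22 in Gfi1-deficient monocytes, the mitotic kinase gene Aurkb 6.27 and 9.06, and the proliferation marker gene Mki67 9.56 and 10.99. Top2a and Mcm3 each had a probe set on the opposite side, at 0.13 and 0.23. Of 14 stem and progenitor genes, 5 stood 2-fold or more higher in granulocytes, Prom1 by at least 20.2-fold, and 1, Cd93, was higher in Gfi1-deficient monocytes (-2.54, with -0.25 by another probe set).

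Markers of some other cell types moved with the comparison, and others did not. All 3 NK cell and all 4 megakaryocyte and platelet genes above the floor lay within 2-fold, as did 4 of 6 basophil and mast cell genes. Of 8 B cell genes above the floor, 5 stood 2-fold or more higher in granulocytes, and the median level was 6.94 against 5.36. Of 6 erythroid genes, 5 were higher, with median levels of 6.89 and 5.75, and Slc4a1 read 9.14 and 7.53. Of 4 T cell genes, Cd3d was higher (8.48, against below the floor) and 3 lay within 2-fold. Pax5, Ebf1, Cd8a and Cd3g were below the floor on both arrays. Of 9 macrophage genes above the floor, 4 were higher in granulocytes, among them the complement genes C1qa, C1qb and C1qc. The other 5, among them Vcam1, Hmox1, Mrc1 and Axl, lay within 2-fold, and Cd163, Mertk and Marco were below the floor on both arrays. The part of such cells in the differences above was not tested. The difference between 3' and 5' control probe sets of Actb was 0.08 in granulocytes and 0.28 in Gfi1-deficient monocytes.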

How the data were processed

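RNA came from a TRIzol extraction, and biotinylated cRNA was prepared from 6 µg of it for Affymetrix arrays, per the labels' protocols. The deposited values are log2 signals, 1 per probe set (22690) and array; the scale was inferred from their range (2.70 to 14.50), and how the authors corrected and normalized them is not given in the sources used here. Array medians ran from 5.91 to 6.01, and no further scaling was applied. Arrays have no read depth, and 1 array a group limits precision.

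Probe sets were named from the platform annotation through gene identifiers to RefSeq (GRCm38.p6): 20393 had 1 gene, 691 several and 1606 none, and only the first were used. Differences, floor, counts and medians were computed with Python 3.11.15, numpy 2.4.6 and pandas 2.3.3, and the script was tested on simulated data. The 32 gene lists, the alternatives and the rule for named genes (members of the neutrophil, monocyte, progenitor and cell cycle lists, markers, and the 12 largest differences a side) were written with earlier results of these data known, so no list is independent evidence. Other named genes, such as Nbeal2 and the markers of other cell types, were chosen after their values were seen or come from the remaining lists. The 24 genes without a chromosome in the table were retained.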

Additional observations from a re-analysis of the deposited data

How the results depend on the processing

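With 1 array a side, no replicate could be left out, and no paired analysis was possible because the groups have 1 sample each. Alternatives were a floor at the 20th or 60th percentile or none, quantile normalization, centred array medians, the median or the least different probe set of a gene, and medians without members at the floor. With a 4-fold rule, 320 genes were higher and 505 lower in granulocytes. Missing genes numbered 27 (20th percentile) and 185 (60th), and kept genes 3132 (60th) and 9197 (no floor). The late maturation median was 3.10 with the 60th percentile floor and also without members at the floor. The interleukin-1 median was 1.44 (median probe set) and 0.85 (least different), and that of innate recognition 0.37 (least different). The other 115 medians of neutrophil lists under alternatives moved by less than the probe set scatter. Signs turned for Il10ra (0.24 with either probe set rule) and, with the least different probe set, for Mcm3 (0.23), Sec61a1 (0.081) and Top2a (0.13). Of the genes at least 2-fold apart, 35.7% were higher in granulocytes, and 42.9% after quantile normalization.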

Other observations

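Genes of protein folding in the endoplasmic reticulum were higher in Gfi1-deficient monocytes than in granulocytes for 10 of 14 members at the 2-fold rule, with a median difference of -1.54. The chaperone gene Canx read 8.87 in granulocytes and 10.90 in Gfi1-deficient monocytes, Hsp90b1 8.95 and 10.84, and the co-chaperone gene Sdf2l1 5.94 and 8.66. Sec61b and Ssr1 lay just inside the 2-fold line, and Dnajb9 was kept at 9.95 and 9.80. The median level of the list was 9.53 in granulocytes and alike in Gfi1-deficient (10.89), GFP-low (10.69) and GFP-high monocytes (10.73).

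Among genes induced by interferon, 9 of 13 members above the floor passed the 2-fold line on the granulocyte side (median 2.33). Rsad2 read 10.85 in granulocytes and 6.49 in Gfi1-deficient monocytes, Rtp4 10.83 and 6.99, and Oasl2 9.66 and 4.91, below the floor. GFP-low monocytes read 9.39, 9.48 and 9.45 for these genes, closer to granulocytes. GFP-high monocytes read 7.50, 6.36 and 5.51, closer to Gfi1-deficient monocytes. The median level of the list was 5.91 in GFP-high and 6.08 in Gfi1-deficient monocytes, so low levels were not particular to the array without Gfi1. Another probe set of Rtp4 gave a difference of only 0.074. Mx1 went the other way, with 4.72 in granulocytes and 6.71 in Gfi1-deficient monocytes. The eosinophil granule genes Prg2 (7.29 and 10.54) and Epx (5.02 and 8.11) were higher in Gfi1-deficient monocytes than in granulocytes. GFP-high monocytes read higher still, at 12.16 and 10.18, and GFP-low monocytes read 7.53 and 4.75. Siglecf (7.02 and 5.81) was higher in granulocytes, and Ccr3 and Il5ra were below the floor on both compared arrays.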
